A study of Mus musculus with 14 samples.

Results

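The glycolytic enzyme isoforms followed here are the products of 10 mouse genes: the brain forms Aldoc and Eno2, the muscle forms Eno3 and Pgam2, the forms of wider use Aldoa, Eno1, Pgam1 and Pgk1, and the lactate dehydrogenase subunits Ldha and Ldhb. A probe set, the group of array probes read as a single value, was taken when the array annotation gave it the name of 1 of these genes and no other. This found 19 probe sets of 45037 that were not array controls: 5 for Aldoa, 4 for Ldhb, 3 for Pgk1, 2 for Aldoc, and 1 each for Eno2, Eno3, Pgam1, Pgam2 and Ldha. Eno1, the enolase of most tissues, had no probe set naming it alone in the annotation used, so 9 of the 10 genes have values and Eno1 was not analysed here.

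Glycolysis turns glucose into pyruvate, and lactate dehydrogenase interconverts pyruvate and lactate. Several of its steps are served by more than 1 gene, and the copies are used by different tissues. Enolase and phosphoglycerate mutase each have a form typical of striated muscle, enolase has a form used as a marker of neurons, and aldolase has a form found in brain, chiefly in astrocytes. Lactate dehydrogenase is a tetramer of M subunits (from Ldha), abundant in muscle that works without oxygen, and H subunits (from Ldhb), abundant in heart and brain.

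RNA of hippocampus and heart from C57BL/6 mice was measured on 14 single-colour Affymetrix mouse genome arrays. Adult hippocampus and adult heart, from male animals 10 weeks old, had by their titles and the design text 2 biological replicates each with 2 technical arrays, and pup hippocampus and pup heart, from animals 7 days old of unstated sex, had 3 biological replicates each with 1 array. Other labels and the article's text count the 4 adult arrays of a tissue as biological replicates, a reading that called 16819 probe sets between adult tissues in place of 9988. Adult RNA was bought from a supplier and pup RNA was isolated from dissected tissue, so age, RNA source and preparation cannot be told apart. The study's methods name the adult donor in the singular, and whether both adult replicates had an animal of their own is not stated, so p-values that involve adults cover only the scatter among these samples, part of which may be technical.

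Values are log2 expression values as deposited, and each pair of technical arrays was averaged, which left 10 samples. Over the 19 probe sets and 4 adult samples the technical arrays differed by a median of 0.24 and by at most 0.85. The highest value on an array lay between 15.978 and 15.998, and 9 of the 19 probe sets averaged over 15 in at least 1 group. Array medians lay between 8.73 and 8.98. Of the 19 probe sets 15 are of types that can match several transcripts. For those whose names end in _x_at, RNA of near-identical copies may be part of their values. All 10 genes of a cardiomyocyte marker list were higher in every heart sample than in every hippocampus sample. Of 8 neuronal markers, Snap25, Nefl, Tubb3, Stmn2 and Slc17a7 were higher in every hippocampus sample, while Syt1, Rbfox3 and Map2 on their brightest probe sets overlapped between the tissues. Pup hippocampus replicate 1 stood apart in part of the heart genes: the cardiomyocyte list averaged 11.28 there, against 10.26 and 9.54 in pup hippocampus replicates 2 and 3 and 9.01 and 9.26 in adult hippocampus. Of the 10 genes, 5 were highest there among the hippocampus samples, namely Myh6, Actc1, Tnnt2, Tnni3 and Myl2. The others peaked in other hippocampus samples.

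The muscle isoforms were low in hippocampus and high in heart at both ages. Eno3 encodes the enolase of striated muscle (chromosome 11). It measured 7.15 and 6.92 in adult hippocampus, against 12.25 and 12.20 in adult heart. In pups Eno3 measured 8.70, 7.19 and 6.18 in hippocampus, against 13.54, 13.57 and 14.31 in heart. No hippocampus sample came near a heart sample, and the highest hippocampus value was that of pup replicate 1, in which part of the cardiomyocyte markers were raised.

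Eno3 was lower in hippocampus than in heart by a log2 difference of -5.19 ± 0.65 in adults (SE, adjusted p = 0.000759) and -6.45 ± 0.53 in pups (adjusted p = 3.51e-05). Without pup hippocampus replicate 1 the pup difference was -7.12 (adjusted p = 1.44e-05). The skeletal muscle myosins Myh2 and Myh4, chosen after their values were seen, lay between 6.77 and 7.84 in all 10 samples. This range overlaps Eno3 and Pgam2 in hippocampus, Eno2 in heart at both ages and Aldoc in pup heart. Such low values are not shown to be above background, so no fold is given against them and the log2 differences are on the array's own scale. In these bulk samples, fewer cells of a type and less RNA per cell cannot be told apart.

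Pgam2, the muscle phosphoglycerate mutase, moves a phosphate group within the sugar acid ahead of the enolase step. Its values were 7.22 and 6.58 in adult hippocampus, against 10.17 and 10.45 in adult heart. Pup hippocampus had 6.82, 6.59 and 7.46, against 10.41, 10.60 and 11.01 in pup heart. The hippocampus samples of both ages shared a narrow band, and so did the heart samples.

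The difference of Pgam2 between hippocampus and heart was -3.41 ± 0.37 in adults (adjusted p = 0.000405) and -3.71 ± 0.30 in pups (adjusted p = 3.1e-05), and -3.65 in pups without pup hippocampus replicate 1 (adjusted p = 0.000316). Unlike Eno3, Pgam2 had its highest pup hippocampus value in replicate 3.

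Both muscle genes lie on chromosome 11, and their start regions are shown because the pair moved together between the tissues. The RefSeq windows run from 250 bases before to 50 bases after the annotated start of transcription (build GRCm38.p6), and capitals mark the E-box CANNTG, the motif bound by muscle and neuronal helix-loop-helix factors. The Pgam2 window is chr11:5803747-5804046 on the minus strand and the Eno3 window is chr11:70656926-70657225 on the plus strand.
Pgam2: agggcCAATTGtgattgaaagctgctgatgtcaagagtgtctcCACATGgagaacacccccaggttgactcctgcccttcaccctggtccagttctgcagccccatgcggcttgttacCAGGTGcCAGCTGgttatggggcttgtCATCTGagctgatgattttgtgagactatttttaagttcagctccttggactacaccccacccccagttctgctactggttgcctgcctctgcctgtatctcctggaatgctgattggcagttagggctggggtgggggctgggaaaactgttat
Eno3: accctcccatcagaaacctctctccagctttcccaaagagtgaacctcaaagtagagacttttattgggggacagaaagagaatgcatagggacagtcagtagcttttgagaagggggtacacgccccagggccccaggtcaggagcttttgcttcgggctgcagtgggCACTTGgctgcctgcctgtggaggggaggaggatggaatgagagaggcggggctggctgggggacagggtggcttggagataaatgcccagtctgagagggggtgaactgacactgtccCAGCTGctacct
Pgam2 held 5 E-boxes and Eno3 held 2. An E-box stood in 72.3% of the 32851 windows of this length in the table, searched on both strands, and in 11 of the 16 windows of the members. A MEF2 motif, the site of a family of muscle transcription factors, stood in the Pgam2 window and in no other member window, against 3.19% of all windows. These matches describe the letters only.

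The brain isoforms had the opposite pattern. Eno2, the enolase of neurons (chromosome 6), measured 10.57 and 10.99 in adult hippocampus, against 6.54 and 7.27 in adult heart. In pups it measured 9.86, 10.03 and 9.40 in hippocampus, against 7.25, 7.73 and 7.07 in heart. Every hippocampus sample lay above every heart sample, with a wider gap in adults.

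Eno2 was higher in hippocampus by 3.87 ± 0.36 in adults (adjusted p = 0.000213) and by 2.41 ± 0.30 in pups (adjusted p = 0.000451). The gap between the tissues was 1.46 ± 0.47 larger in adults, which did not pass the test (adjusted p = 0.116).

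Aldoc, the aldolase of brain, is often used to mark astrocytes, and it lies on chromosome 11. Its probe set 1451461_a_at measured 13.04 and 13.95 in adult hippocampus, against 9.69 and 8.95 in adult heart. In pups it measured 15.02, 14.69 and 14.83 in hippocampus, against 7.69, 7.73 and 7.90 in heart. Among the 19 probe sets it had the largest difference between the tissues of pups.

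The Aldoc difference was 4.17 ± 0.36 in adults (18.0-fold, adjusted p = 0.000153) and 7.08 ± 0.29 in pups (adjusted p = 9.49e-07). The second Aldoc probe set, 1424714_at, stayed between 6.82 and 8.29 in all 10 samples. It differed by 0.33 in adults (adjusted p = 0.575) and by 0.62 in pups (adjusted p = 0.211), and over the 10 samples its correlation with the first was 0.679 (Pearson's r, a description of samples that share their tissues).

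The start regions of the brain pair are given for comparison with those of the muscle pair, with E-boxes again in capitals. The Aldoc window is chr11:78322823-78323122 on the plus strand, the first of 2 that the table gives for this gene, and the Eno2 window is chr6:124769624-124769923 on the minus strand.
Aldoc: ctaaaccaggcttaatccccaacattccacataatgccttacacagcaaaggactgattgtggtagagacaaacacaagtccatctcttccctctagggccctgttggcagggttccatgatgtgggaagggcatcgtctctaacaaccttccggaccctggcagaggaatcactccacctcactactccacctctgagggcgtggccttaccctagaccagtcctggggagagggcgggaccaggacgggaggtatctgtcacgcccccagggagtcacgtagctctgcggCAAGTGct
Eno2: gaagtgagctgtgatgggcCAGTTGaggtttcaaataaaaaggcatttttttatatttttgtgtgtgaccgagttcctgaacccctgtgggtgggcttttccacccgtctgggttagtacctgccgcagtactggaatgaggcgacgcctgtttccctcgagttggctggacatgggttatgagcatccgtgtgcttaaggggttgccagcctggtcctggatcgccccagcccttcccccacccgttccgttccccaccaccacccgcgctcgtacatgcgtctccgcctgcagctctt
Each window held 1 E-box. The Eno2 window also held a TATAAA motif, found in 13.6% of all windows on either strand.

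**Figure D1:**
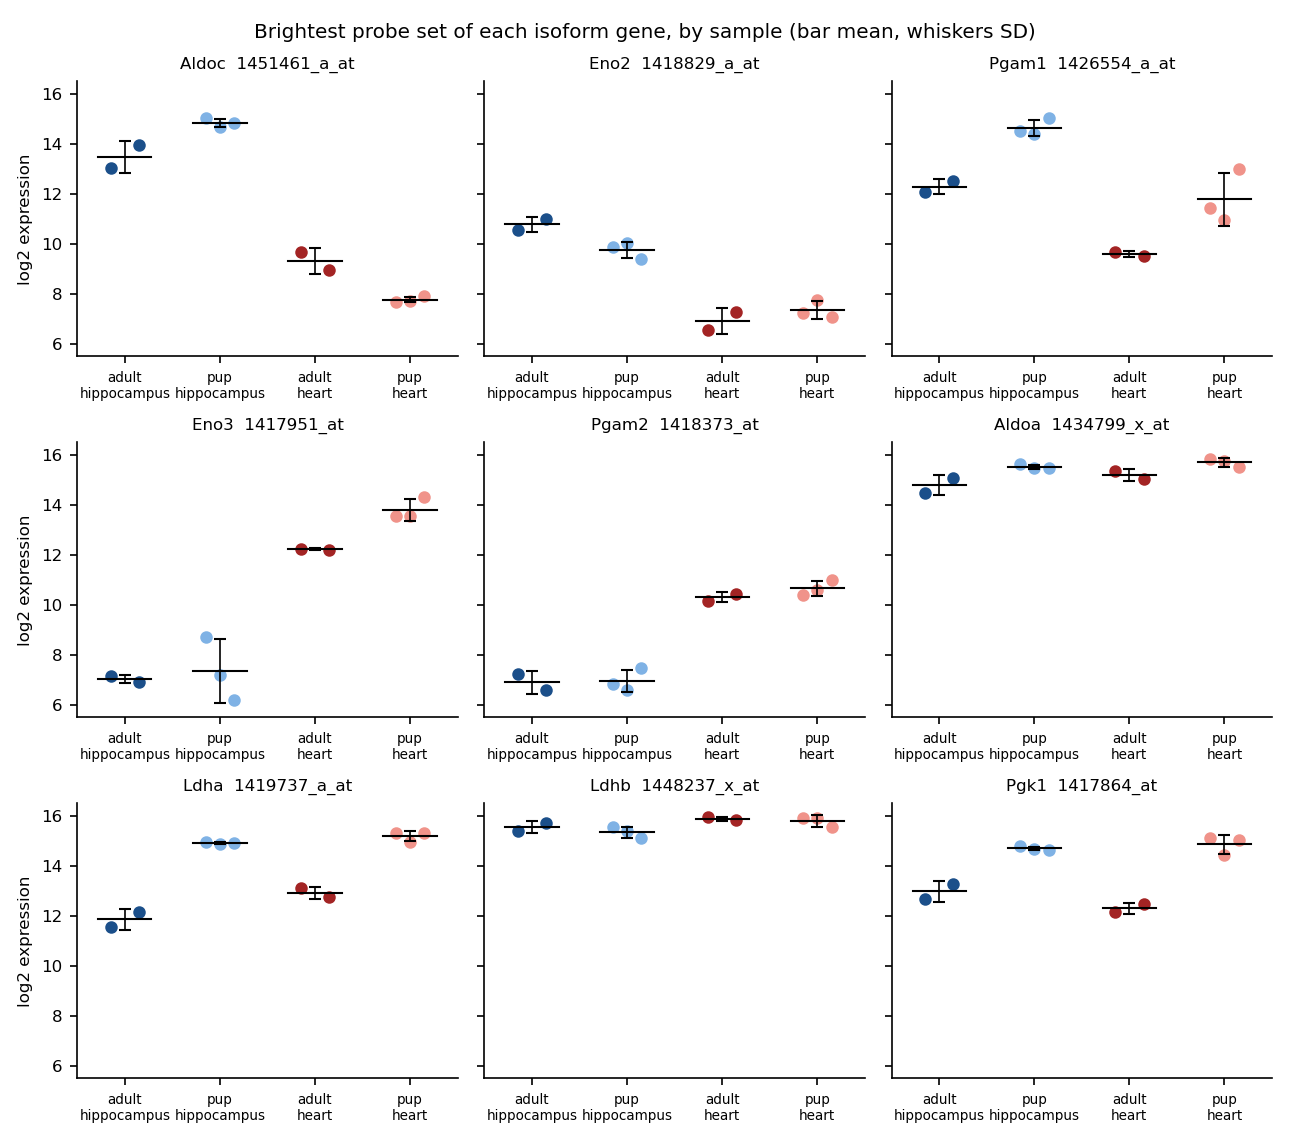
Log2 expression (vertical axis) of the brightest probe set of each of the 9 measured genes in adult hippocampus, pup hippocampus, adult heart and pup heart; each point is a biological sample, the bar the group mean and the whiskers the SD (n = 2 for adults, 3 for pups). Aldoc, Eno2 and Pgam1 were higher in hippocampus, Eno3 and Pgam2 in heart, and Ldha and Pgk1 lay lower in both adult groups than in the pup groups.

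Among the general isoforms, Pgam1 also differed between the tissues. Pgam1 is the phosphoglycerate mutase of brain and most other tissues (chromosome 19). It measured 12.07 and 12.52 in adult hippocampus, against 9.69 and 9.53 in adult heart. Pup hippocampus had 14.51, 14.39 and 15.02, against 11.42, 10.95 and 12.98 in pup heart. The tissues did not overlap at either age, and pup heart replicate 3 exceeded both adult hippocampus samples.

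Pgam1 was higher in hippocampus by 2.69 ± 0.56 in adults (6.45-fold, adjusted p = 0.0085) and by 2.85 ± 0.46 in pups (7.23-fold, adjusted p = 0.00245). Leaving out adult heart replicate 2 or adult hippocampus replicate 2 ended the adult call (differences 2.61 and 2.47, adjusted p = 0.0545 and 0.0646). The call in pups held with any single sample left out.

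Ldha was lower in adult hippocampus, at 11.57 and 12.16, against 13.10 and 12.76 in adult heart (difference -1.07 ± 0.28, adjusted p = 0.0244). Leaving out adult heart replicate 1, adult heart replicate 2 or adult hippocampus replicate 1 ended that call (differences -0.90, -1.24 and -0.78, adjusted p = 0.144, 0.0579 and 0.166). In pups Ldha measured 14.95, 14.88 and 14.91 in hippocampus, against 15.30, 14.96 and 15.30 in heart, a difference of -0.28 that did not pass (adjusted p = 0.493). These pup values lie near the top of the arrays' scale, which limits the difference they can show.

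The probe sets of Ldhb, the H subunit, were bright in both tissues. Those named 1448237_x_at, 1416183_a_at and 1455235_x_at stayed between 15.09 and 15.95 in all samples, close to the top of the arrays' scale, and their differences between the tissues ranged from -0.44 to 0.16 with no call at either age. The 4th, 1434499_a_at, measured 14.004, 13.02 and 14.17 in pup hippocampus, against 15.37, 14.83 and 15.55 in pup heart. There the difference was -1.52 ± 0.35 (adjusted p = 0.0167), and the call ended without pup heart replicate 1 (-1.46, adjusted p = 0.0518) or without pup hippocampus replicate 2 (-1.16, adjusted p = 0.0526).

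Aldoa, the aldolase of muscle and many other tissues (chromosome 7), had 4 bright probe sets whose tissue differences ranged from -0.42 to 0.77, none of them past the threshold at either age. The difference of 1447734_x_at in adults, 0.77, became 1.20 and passed without adult hippocampus replicate 1 (adjusted p = 0.0435). The 5th, 1433604_x_at, differed from them. In pups it measured 9.56, 9.31 and 9.08 in hippocampus, against 11.46, 11.92 and 11.25 in heart, a difference of -2.23 ± 0.24 (4.68-fold, adjusted p = 0.000207). In adults it measured 11.42 and 11.61 in hippocampus, against 11.91 and 12.01 in heart (difference -0.45, adjusted p = 0.32).

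Pgk1, whose product makes the first ATP of glycolysis, is X-linked. Its 3 probe sets showed no tissue difference past the threshold: they ranged from 0.20 to 0.68 in adults and from -1.04 to -0.17 in pups. The widest 95% intervals among them ran from -0.95 to 2.01 in adults and from -1.81 to 0.61 in pups, so differences of more than 2-fold are within the error. The difference of 1438640_x_at in pups became -1.65 (adjusted p = 0.00766) without pup heart replicate 2, its lowest pup heart sample.

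In adults, 3 of the 19 probe sets were higher in hippocampus and 3 were lower, where 10.3% of all probe sets were called higher and 11.9% lower. In pups, 3 were higher and 4 lower, where the shares over all probe sets were 7.52% and 6.77%. The median difference of the 19 was 0.16 in adults and -0.28 in pups, beside -0.06 and -0.10 over all probe sets. In adults 4639 of all probe sets were higher and 5349 lower, but 5362 were higher and 4649 lower after the scaling in the study's methods, 5285 and 4525 after median centring, and 5127 and 4738 after quantile normalization. The members called higher and lower were 3 and 3 under each. The tissue calls of Eno3, Pgam2, Eno2 and the bright Aldoc probe set held with any single sample left out.

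**Figure D2:**
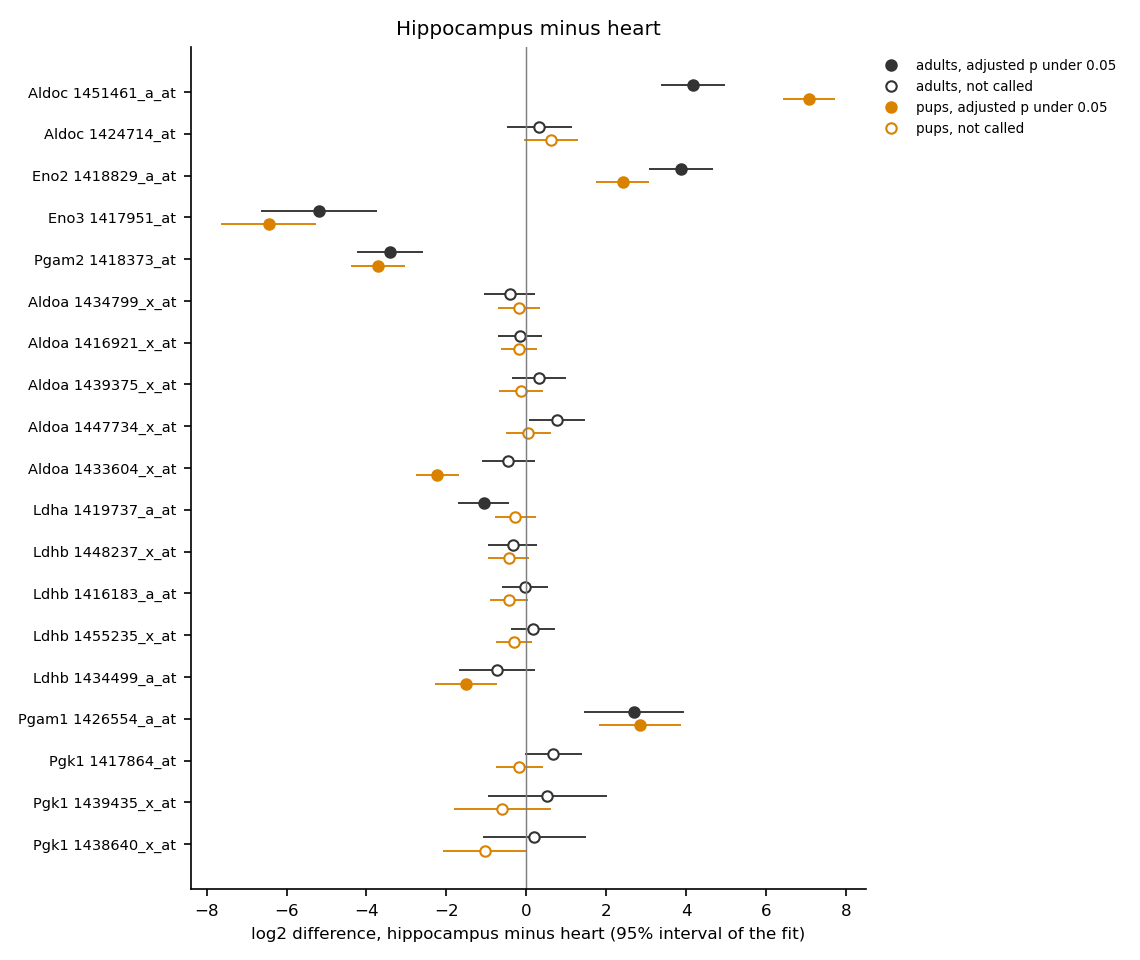
Log2 difference between hippocampus and heart (horizontal axis) of the 19 probe sets, in adults and in pups, with the 95% interval of the fit; filled points passed an adjusted p of 0.05. Aldoc 1451461_a_at, Eno2 and Pgam1 lie to the right at both ages and Eno3 and Pgam2 to the left, while most Aldoa, Ldhb and Pgk1 probe sets lie near 0.

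The comparison of adults with pups asks whether the isoforms differ between the 2 stages in the same tissue. Ldha had the largest age difference of the 19 probe sets in hippocampus and fell in heart too. In adult hippocampus it measured 11.57 and 12.16, against 14.95, 14.88 and 14.91 in pup hippocampus. In adult heart it measured 13.10 and 12.76, against 15.30, 14.96 and 15.30 in pup heart. The adult samples lay below every pup sample of the same tissue.

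Ldha fell with age by a log2 difference of -3.05 ± 0.26 in hippocampus (8.27-fold, adjusted p = 0.000467) and of -2.25 ± 0.26 in heart (4.77-fold, adjusted p = 0.000873). Both calls held with any single sample left out. The 3 brightest probe sets of the H subunit differed with age by -0.03 to 0.27 in hippocampus and by -0.50 to 0.09 in heart and none passed, but at the top of the scale they had little room to show a change.

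The 4th Ldhb probe set, 1434499_a_at, differed from those 3. It measured 13.29 and 13.06 in adult heart, against 15.37, 14.83 and 15.55 in pup heart, a difference of -2.07 ± 0.39 (adjusted p = 0.00598). Without adult heart replicate 2 it was -1.96 and did not pass (adjusted p = 0.0514). In adult hippocampus it measured 12.12 and 12.77, against 14.004, 13.02 and 14.17 in pup hippocampus (difference -1.29, adjusted p = 0.0531). That result passed without pup heart replicate 2, pup heart replicate 3 or pup hippocampus replicate 2 (differences -1.29, -1.29 and -1.64, adjusted p = 0.0464, 0.0484 and 0.0244).

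All 3 Pgk1 probe sets fell in adults of both tissues. On the brightest, 1417864_at, adult hippocampus measured 12.68 and 13.28, against 14.79, 14.67 and 14.65 in pup hippocampus. Adult heart measured 12.14 and 12.46, against 15.13, 14.44 and 15.05 in pup heart. The log2 difference was -1.72 ± 0.29 in hippocampus (3.30-fold, adjusted p = 0.00609) and -2.57 ± 0.29 in heart (5.94-fold, adjusted p = 0.000842).

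On the other Pgk1 probe sets 1438640_x_at and 1439435_x_at, the differences were -1.82 and -2.21 in hippocampus (adjusted p = 0.045 and 0.0381) and -3.07 and -3.33 in heart (adjusted p = 0.0041 and 0.00523). In hippocampus the call on 1417864_at ended without adult hippocampus replicate 1 (difference -1.42, adjusted p = 0.0708). The hippocampus calls on 1438640_x_at and 1439435_x_at ended when any 1 of the 7 adult or pup hippocampus and adult heart samples was left out, with differences of -2.05 to -1.64 for the first and -2.49 to -1.80 for the second. In heart, the call on 1439435_x_at ended without adult heart replicate 1 (-3.20, adjusted p = 0.0508).

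Pgam1 fell in both tissues as well, by -2.34 ± 0.51 in hippocampus (adjusted p = 0.0166) and by -2.18 ± 0.51 in heart (adjusted p = 0.0161), with both adult samples below all pup samples in each tissue. In hippocampus the call ended without adult replicate 1, adult replicate 2 or pup replicate 3 (differences -2.12, -2.57 and -2.15, adjusted p = 0.124, 0.0681 and 0.055). In heart it ended without either adult replicate (-2.26 and -2.10, adjusted p = 0.0855 and 0.0969).

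Ldha and Pgk1 are textbook targets of the hypoxia-inducible factors, and their start regions are shown because both fell with age in both tissues. Capitals mark the core of the hypoxia response element, ACGTG or GCGTG on either strand. The Ldha window is chr7:46845554-46845853, the first of 2 given for this gene, and the Pgk1 window is chrX:106186850-106187149, both on the plus strand.
Ldha: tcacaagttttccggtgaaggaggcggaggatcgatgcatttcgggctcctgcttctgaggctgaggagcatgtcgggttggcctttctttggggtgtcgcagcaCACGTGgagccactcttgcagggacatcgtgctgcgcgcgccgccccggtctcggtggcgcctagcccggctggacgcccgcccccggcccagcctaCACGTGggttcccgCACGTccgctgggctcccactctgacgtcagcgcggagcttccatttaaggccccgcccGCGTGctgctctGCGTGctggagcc
Pgk1: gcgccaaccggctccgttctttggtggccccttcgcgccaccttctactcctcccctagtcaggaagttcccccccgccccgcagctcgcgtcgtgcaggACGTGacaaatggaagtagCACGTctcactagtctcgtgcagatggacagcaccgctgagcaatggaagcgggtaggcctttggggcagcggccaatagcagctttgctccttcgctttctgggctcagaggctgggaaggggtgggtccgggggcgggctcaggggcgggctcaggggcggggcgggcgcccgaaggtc
The Ldha window held the core 7 times, in 5 separate places since CACGTG, itself an E-box, reads as a core on both strands, and the Pgk1 window held it 2 times. The core stood in 43.8% of all windows and in 13 of the 16 member windows. No binding was measured in this series.

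Aldoa gave opposite age differences on different probe sets. On 1447734_x_at, adult hippocampus measured 13.67 and 14.53, against 15.34, 15.24 and 15.40 in pup hippocampus, a difference of -1.23 ± 0.28 (adjusted p = 0.0197). The same probe set measured 13.43 and 13.23 in adult heart, against 15.26, 15.12 and 15.47 in pup heart, a difference of -1.95 ± 0.28 (adjusted p = 0.00198). The probe set 1439375_x_at fell too, by -0.97 in hippocampus (adjusted p = 0.0415) and by -1.42 in heart (adjusted p = 0.00655), and the 2 brightest, 1434799_x_at and 1416921_x_at, differed by -0.74 to -0.50 with no call.

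The hippocampus call on 1447734_x_at ended without adult hippocampus replicate 1 or pup hippocampus replicate 3 (differences -0.80 and -1.20, adjusted p = 0.171 and 0.0583). That on 1439375_x_at ended without any 1 of the 5 hippocampus samples (differences -1.30 to -0.63), and its heart call ended without adult heart replicate 2 (-1.17, adjusted p = 0.0671).

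By contrast 1433604_x_at rose with age in hippocampus, at 11.42 and 11.61 in adults, against 9.56, 9.31 and 9.08 in pups (difference 2.20 ± 0.27, 4.59-fold, adjusted p = 0.00154). In heart it did not pass (0.42 ± 0.27, adjusted p = 0.309). Over the 10 samples its correlation with the other 4 Aldoa probe sets ran from -0.60 to -0.24, whereas those 4 correlated with each other at 0.71 to 0.98.

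The array holds control probe sets at the 3′ and 5′ ends of Gapdh, and the level at its 5′ end varied with age and tissue. The Gapdh 5′ control measured 13.74 and 14.53 in adult hippocampus, against 12.71, 12.43 and 10.50 in pup hippocampus. In heart it measured 14.25 and 13.72 in adults, against 13.18, 14.98 and 11.62 in pups. Its 3′ control stayed between 15.32 and 15.84 in all 10 samples, near the top of the arrays' scale, which limits the differences it can show. Pup hippocampus had the lowest group mean on both the Gapdh 5′ control and Aldoa 1433604_x_at, and within each pup tissue the 3 samples stood in the same order on both. The order was also the same in adult hippocampus, but it was reversed in adult heart. Adult hippocampus averaged above adult heart on the Gapdh 5′ control (14.14 against 13.98) and below it on this Aldoa probe set (11.52 against 11.96).

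The gap between the 3′ and 5′ ends of Gapdh was 1.58 and 1.00 in adult hippocampus, against 2.90, 3.03 and 4.97 in pup hippocampus, and 1.58 and 1.76 in adult heart, against 2.49, 0.72 and 3.80 in pup heart. The same gap on the Actb controls averaged 0.08 in adult hippocampus, against 2.22 in pup hippocampus, and 0.02 in adult heart, against 0.59 in pup heart. The added hybridization controls averaged 10.96 in adult hippocampus, against 13.24 in pup hippocampus, and 10.84 in adult heart, against 13.26 in pup heart. The part of these differences in the age results above was not tested.

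**Figure D3:**
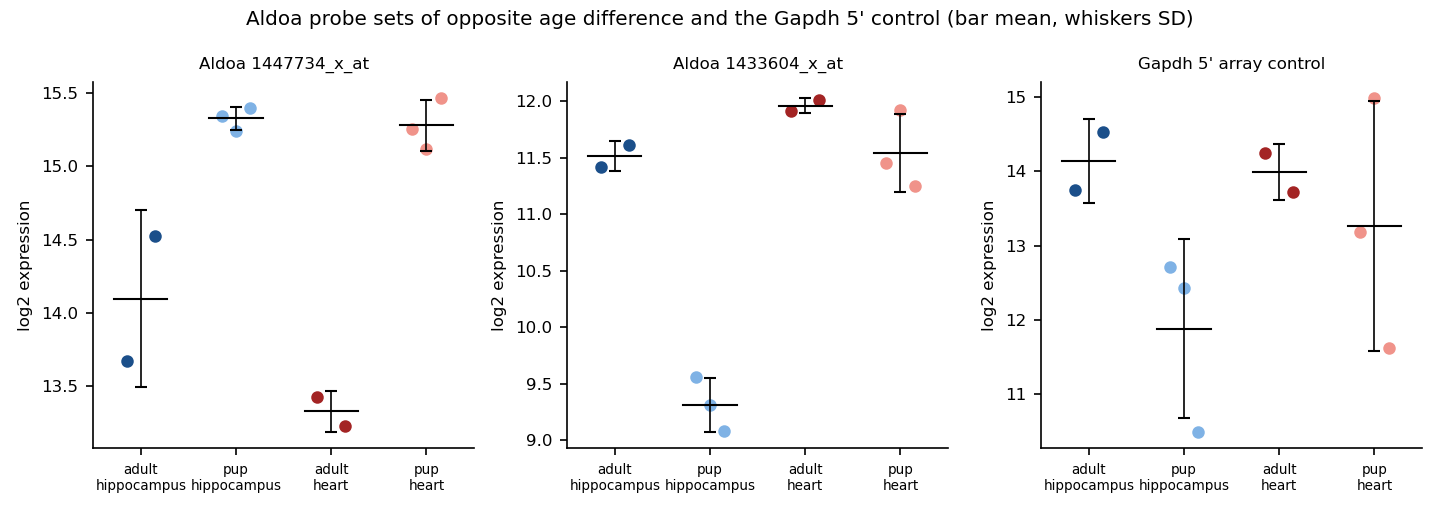
Log2 expression (vertical axes, each with its own range) of Aldoa 1447734_x_at, Aldoa 1433604_x_at and the Gapdh 5′ array control in the 10 samples; points are samples, bars group means and whiskers the SD. The first Aldoa probe set is lower in both adult groups than in the pup groups, while the second and the Gapdh 5′ control have their lowest mean in pup hippocampus.

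The age differences of the brain and muscle isoforms ran in both directions. Aldoc 1451461_a_at was lower in adult hippocampus (13.04 and 13.95, against 15.02, 14.69 and 14.83 in pups, difference -1.36 ± 0.33, adjusted p = 0.0234) and higher in adult heart (9.69 and 8.95, against 7.69, 7.73 and 7.90 in pups, difference 1.55 ± 0.33, adjusted p = 0.00993). The age difference in hippocampus was lower than that in heart by a difference of -2.91 ± 0.46 (adjusted p = 0.013).

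The hippocampus call of Aldoc ended without adult hippocampus replicate 1, pup hippocampus replicate 1 or pup hippocampus replicate 3 (differences -0.90, -1.27 and -1.37, adjusted p = 0.198, 0.0634 and 0.0606), and the heart call without adult heart replicate 1 (1.17, adjusted p = 0.105). The difference between the tissues' age effects lost its call without adult heart replicate 1 (-2.53, adjusted p = 0.0639) or adult hippocampus replicate 1 (-2.45, adjusted p = 0.0633).

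A list of 7 astrocyte markers averaged 11.84 and 11.57 in adult hippocampus, against 11.24 to 11.73 in pup hippocampus, and 10.49 in both adult heart samples, against 10.57 to 10.84 in pup heart. Of these markers, Aqp4 and Aldh1l1 were higher in every hippocampus sample than in every heart sample. The other 5, on their brightest probe sets, overlapped between the tissues.

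Eno2 measured 1.02 ± 0.33 higher in adult hippocampus than in pup hippocampus, with no overlap of the samples, but did not pass (adjusted p = 0.0674), and it differed by -0.45 in heart (adjusted p = 0.38). Eno3 measured 12.25 and 12.20 in adult heart, against 13.54, 13.57 and 14.31 in pup heart, a difference of -1.58 ± 0.59 that did not pass (adjusted p = 0.0894). It passed without pup hippocampus replicate 1 (adjusted p = 0.0197) or replicate 3 (adjusted p = 0.0388), whose removal leaves the difference in heart as it was and changes the shared estimate of the spread. In hippocampus Eno3 differed by -0.32 with age, and by 0.35 without pup hippocampus replicate 1 (adjusted p = 0.752 and 0.615).

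Pgam2 differed by -0.05 in hippocampus and by -0.36 in heart (adjusted p = 0.936 and 0.493). Its 95% intervals ran from -0.80 to 0.70 and from -1.11 to 0.39. The cardiomyocyte list averaged 13.94 and 13.59 in adult heart, against 15.13, 14.56 and 14.92 in pup heart, and a list of 4 endothelial markers 10.60 and 10.59 in adult heart, against 12.64 to 13.04 in pup heart. The part of these differences in the age results was not tested.

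With age, 1 of the 19 probe sets rose and 8 fell in hippocampus, where 8.38% of all probe sets rose and 6.52% fell. In heart, 1 rose and 8 fell, where 11.7% of all probe sets rose and 8.32% fell. The median age difference of the 19 was -0.74 in hippocampus and -0.61 in heart, beside 0.12 and 0.11 over all probe sets. The 16 falls were on probe sets of Ldha, Pgk1, Pgam1, Aldoa, Ldhb and Aldoc, and the rises were on Aldoa 1433604_x_at in hippocampus and Aldoc 1451461_a_at in heart. Over all probe sets in heart 5262 rose and 3749 fell, but 4277 rose and 4722 fell after the scaling in the study's methods and 4122 rose and 4699 fell after median centring. In hippocampus 3773 rose and 2936 fell, but 2927 rose and 3233 fell after that scaling and 2926 rose and 3320 fell after centring.

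The age differences of Ldha, Pgam1 and the 3 Pgk1 probe sets did not differ between the tissues past the threshold: the age difference in hippocampus minus that in heart was -0.79 for Ldha, -0.16 for Pgam1 and 0.85 to 1.24 for Pgk1 (adjusted p = 0.255 to 0.929). Without pup heart replicate 2 it was 1.85 for Pgk1 1438640_x_at (adjusted p = 0.0498). In all, 1 of the 19 probe sets had a higher and 1 a lower age difference in hippocampus than in heart, where 1.18% of all probe sets were called higher and 2.37% lower. These were Aldoa 1433604_x_at (1.78 ± 0.38, adjusted p = 0.0364) and Aldoc 1451461_a_at.

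**Figure D4:**
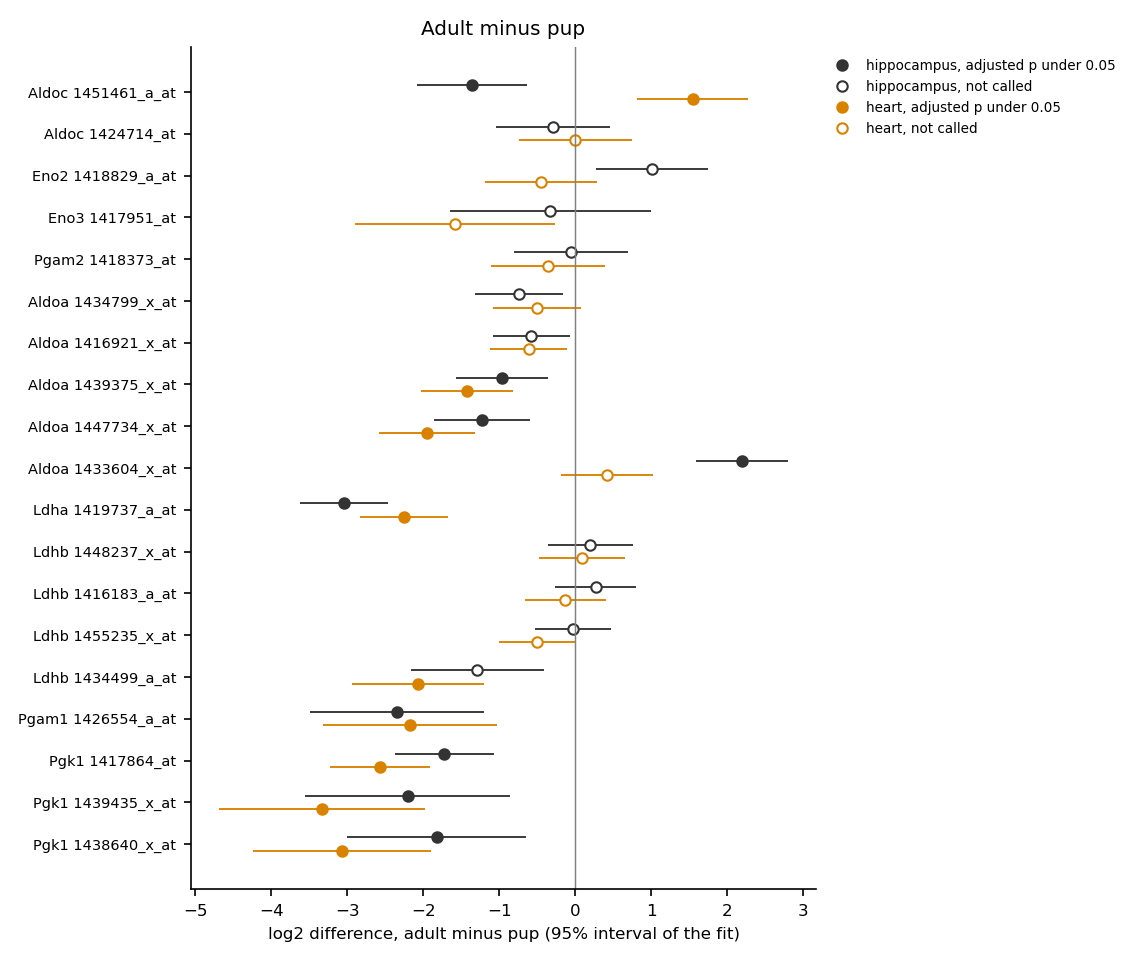
Log2 difference between adults and pups (horizontal axis) of the 19 probe sets, in hippocampus and in heart, with the 95% interval of the fit; filled points passed an adjusted p of 0.05. Ldha, Pgam1, Pgk1 and 2 Aldoa probe sets lie to the left in both tissues, Aldoc 1451461_a_at on opposite sides, and Aldoa 1433604_x_at to the right in hippocampus.

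The balance of paired isoforms was followed within each sample as the log2 value of 1 gene minus that of its partner, on the brightest probe set of each. Probe sets of different genes differ in brightness for the same amount of RNA, so only changes of this balance between samples are described, with no test. For Eno2 minus Eno3 it was 3.43 and 4.07 in adult hippocampus, against -5.71 and -4.93 in adult heart, and 1.16, 2.84 and 3.22 in pup hippocampus, against -6.29, -5.84 and -7.24 in pup heart. The mean balance of the enolases thus lay 9.07 higher in hippocampus in adults and 8.86 higher in pups, and the lowest hippocampus value was that of pup replicate 1.

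For Aldoc minus Aldoa the balance was -1.46 and -1.12 in adult hippocampus, against -5.68 and -6.08 in adult heart. Pup hippocampus had -0.60, -0.77 and -0.66, against -8.16, -8.04 and -7.60 in pup heart. The tissue gap in this balance was 4.59 in adults and 7.26 in pups, on an Aldoa probe set that lay between 14.50 and 15.85, near the top of the scale. With the other 4 Aldoa probe sets it ran from 3.402 to 4.615 in adults and from 7.03 to 9.30 in pups. On the dim Aldoc probe set 1424714_at the gap ran from -0.44 to 0.77 in adults and from 0.58 to 2.85 in pups. At each age the tissues overlapped on some of these pairs.

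Pgam1 minus Pgam2 stood at 4.85 and 5.94 in adult hippocampus, against -0.48 and -0.93 in adult heart, and at 7.69, 7.80 and 7.56 in pup hippocampus, against 1.02, 0.35 and 1.98 in pup heart. The mutases therefore shifted with both tissue (6.10 in adults and 6.57 in pups) and age (-2.29 in hippocampus and -1.82 in heart). Of the 2 genes Pgam1 passed the test with age and Pgam2 did not.

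Ldhb minus Ldha depended on the Ldhb probe set. The brightest, 1448237_x_at, lay between 15.11 and 15.95 in all samples, at the top of the arrays' scale, so the balance taken on it could follow little besides Ldha. On it the balance measured 3.82 and 3.56 in adult hippocampus, against 0.61, 0.52 and 0.20 in pup hippocampus, and 2.84 and 3.07 in adult heart, against 0.61, 0.98 and 0.24 in pup heart. On 1434499_a_at, which lay lower on the scale except in pup heart, the mean was 1.76 higher in adult than in pup hippocampus, without overlap. It was 0.18 higher in adult than in pup heart, where the samples overlapped, beside 3.25 and 2.34 on the brightest. In pup heart this probe set averaged 15.25 and Ldha 15.19, both near the top of the scale, so shifts that involve pup heart are limited too. Between the tissues the balance on 1434499_a_at was 0.34 higher in hippocampus in adults and differed by -1.24 in pups, beside 0.73 and -0.17 on the brightest. Eno2 minus Eno1 could not be formed.

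**Figure D5:**
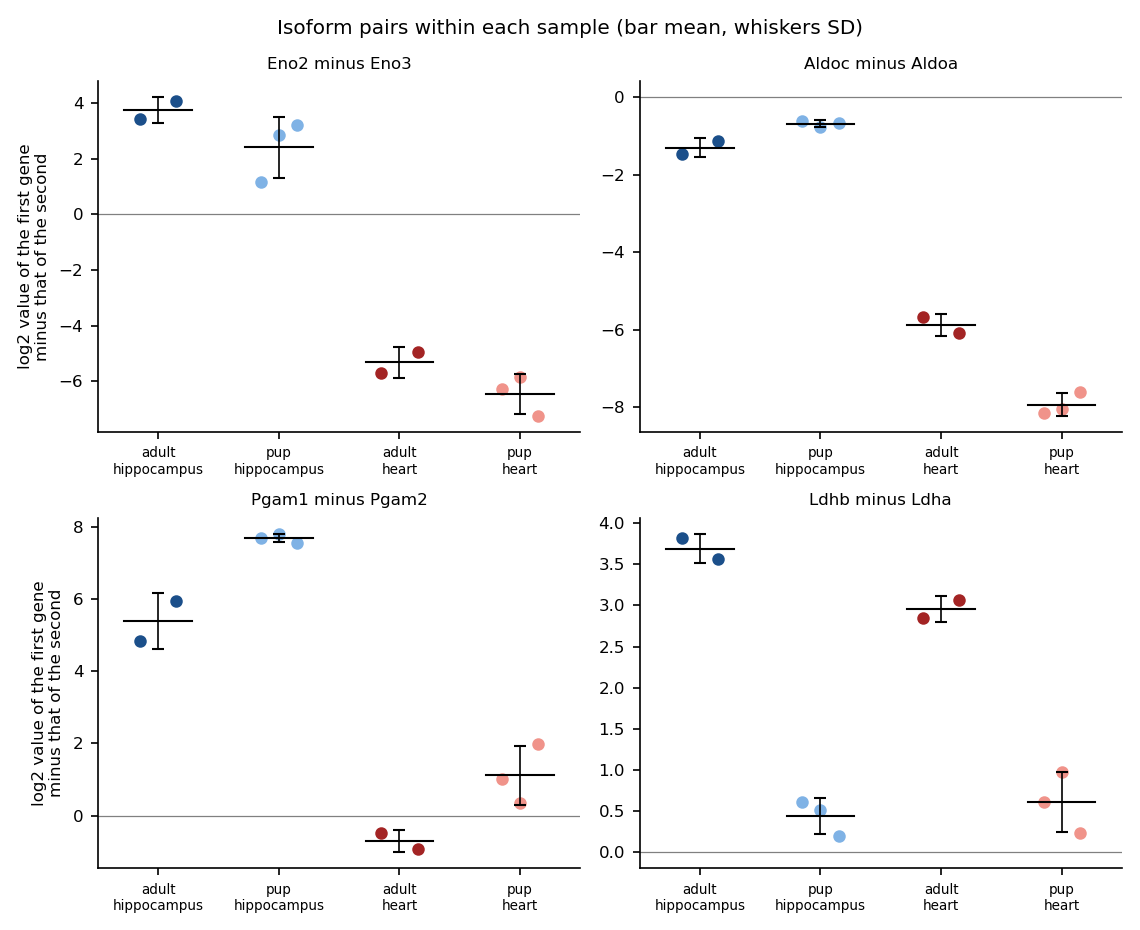
Log2 value of the first gene minus that of the second within each sample (vertical axes, each with its own range) for 4 isoform pairs; points are samples, bars group means and whiskers the SD. The enolase, aldolase and mutase pairs separate hippocampus from heart, which for aldolase did not hold on all pairs with the dim Aldoc 1424714_at. The lactate dehydrogenase pair, whose Ldhb probe set lies between 15.11 and 15.95 at the top of the scale, is higher in adults. In heart this did not hold on Ldhb 1434499_a_at, which in pup heart also lay near the top of the scale.

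The rest of the pathway was read from a list. Of 19 further enzymes and isoforms on the list, 15 had a probe set of their own (31 probe sets in all), and each was read on its brightest. Between adult hippocampus and adult heart 1 of the 15 was called, the lactate dehydrogenase of testis, Ldhc, by -1.36 (adjusted p = 0.0057). Ldhc averaged 8.61 in adult heart, 7.25 in adult hippocampus, 7.21 in pup hippocampus and 7.30 in pup heart, and such low values are not shown to be above background. Between the pup tissues 2 were called, both lower in hippocampus: Pfkm, the muscle phosphofructokinase, by -2.04 (adjusted p = 0.0457) and Tpi1, triose phosphate isomerase, by -1.89 (adjusted p = 0.0306). Over the 31 probe sets, 2 were higher and 2 lower in adult hippocampus, and 1 was higher and 4 lower in pup hippocampus, where the shares over all probe sets were 10.3% and 11.9% in adults and 7.52% and 6.77% in pups.

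With age in hippocampus limma called 0 of the 15 and 4 had an unadjusted p under 0.05, and the methods' t-test also called 0. In heart 1 rose, Ldhc, by 1.31 (adjusted p = 0.0052), from the low pup level given above. The median age difference of the 15 was -0.03 in hippocampus and -0.07 in heart. The largest were 1.97 for Gapdhs in hippocampus (adjusted p = 0.0731) and -1.62 for Tpi1 in heart (adjusted p = 0.0666), neither past the threshold. Pkm, the pyruvate kinase of muscle and brain, differed by -0.38 and -0.97 with age (adjusted p = 0.8 and 0.459), and the hexokinase Hk1 by -0.03 and 0.80 (adjusted p = 0.973 and 0.304). Over all 31 probe sets, 1 rose and 0 fell with age in hippocampus and 1 rose and 2 fell in heart, beside 8.38% and 6.52% of all probe sets in hippocampus and 11.7% and 8.32% in heart.

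For the isoforms with a strong tissue or subunit pattern, the genes most alike over the 10 samples were found by Pearson's r, a description in which the points share 2 tissues and 2 ages. For Eno3 these were Myl3 (r = 0.992), Hadhb (0.990) and Tnni3 (0.989), and for Pgam2 they were Nrap (0.986), Myzap (0.984) and Hjv (0.984). Myl3 and Tnni3 are contractile proteins of the heart, Hadhb is an enzyme of fatty acid oxidation, and Nrap and Myzap are proteins of its myofibril ends and cell junctions.

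For Aldoc the closest were Pnmal2 (0.991), Bmerb1 (0.991) and Slc12a5 (0.991), the last a chloride transporter of neurons. Eno2 was most like Tecpr2 (0.981), Olfm3 (0.979) and Atg12 (0.978), and Ldhb, on a probe set that varied by less than 1 log2 unit, was most like Tomm22 (0.972), Copb2 (0.945) and Aldoart1 (0.944). Aldoart1 lay between 4.39 and 7.32 in all samples, and Tecpr2 and Olfm3 between 6.71 and 7.54 in heart. Such low values are not shown to be above background.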

How the data were processed

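Adult and pup hippocampus and heart of C57BL/6 mice were measured on 14 Affymetrix arrays. The authors deposited log2 expression values per probe set, summarized with RMA 2.0 by the upper decile of the probes. The median centring and percentile scaling in their methods were absent from the deposited values and were run as an alternative. The 64 array control probe sets were left out of the tests. Probe sets were named from the platform annotation, and all 19 member symbols matched RefSeq (GRCm38.p6) through the Entrez identifier. Technical arrays were averaged, and 10 samples entered 1 limma fit (limma 3.58.1, R 4.3.3, statmod 1.5.0) with 4 group means (6 residual degrees of freedom, with a prior worth 3.73 more). Its 5 contrasts were two-sided, with Benjamini-Hochberg adjustment over 45037 probe sets and a threshold of 0.05. "Rose", "fell", "higher" and "lower" refer to this threshold where a test is given. The median standard error was 0.37 between adult tissues, 0.30 between pup tissues, 0.34 for age and 0.48 between age differences, and the number of arrays limits this precision. The step was tested on simulated data. SD values are between samples and SE values are those of the fit. Detection calls were not used, so low values were not set against background.

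The members and gene lists were chosen with earlier results of these data known. Every probe set of every member was described. Of the other pathway genes, up to 4 called ones per comparison were to be named. Pkm, Hk1, Gapdhs and the age result of Tpi1 were chosen after their values were seen. The 3 genes most like Aldoc, Eno2, Eno3, Pgam2 and Ldhb were named, passing over clone and model names. Alternatives covered scaling, treatment of technical arrays, filters, prior, samples in the fit, the methods' t-test, replicate blocks and leaving out each sample. The replicate number was not used as a block, because samples of the same number did not deviate together (r from -0.0843 to 0.197).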

Additional observations from a re-analysis of the deposited data

Results flagged for a closer look

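The age difference of 2 probe sets differed between the tissues by the test of the difference itself. Aldoc 1451461_a_at, the brain aldolase, was lower in adults than in pups in hippocampus and higher in adults than in pups in heart, and its age difference in hippocampus minus that in heart was -2.91 (adjusted p = 0.013). With any 1 sample left out this value lay between -3.36 and -2.45. The other Aldoc probe set, 1424714_at, gave -0.30 (adjusted p = 0.776).

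Aldoa 1433604_x_at was higher in adult than in pup hippocampus, and its age difference in hippocampus minus that in heart was 1.78 (adjusted p = 0.0364). The other 4 Aldoa probe sets gave values between -0.23 and 0.72, none past the threshold. The call of 1433604_x_at ended in 8 of the 10 fits that left out 1 sample, with values between 1.59 and 1.93 over all 10. The Gapdh 5′ control of the same arrays averaged 14.14 in adult hippocampus, against 11.88 in pup hippocampus, and 13.98 in adult heart, against 13.26 in pup heart, and its part in the result was not tested.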

How the results depend on the processing

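Of 33 member calls none changed direction. Of 144 alternative values of the differences in isoform balance, 5 differed from the reported value by more than the SD between samples, each with the mean over a gene's probe sets: Aldoc minus Aldoa was 2.23 between adult tissues, 4.39 between pup tissues and 1.59 with age in heart, and Ldhb minus Ldha was 2.84 with age in hippocampus and 1.60 in heart. Leaving out a sample or centring can move these differences little by construction. The mean over probe sets cannot move the enolase and mutase pairs, whose genes have 1 probe set each. The share of 5 in 144 is therefore no measure of how stable the balances are. The balances on other probe sets given above do not cover every pair of probe sets and were chosen after seeing the data. With any setting other than the methods' t-test 16 were kept, and 24 were kept when fits leaving out a sample were also set aside. The methods' t-test at an adjusted p of 0.05 kept 7 of 31. Where a fit left 1 adult sample in a group, that sample was assumed to vary like the other groups. Of 62 member results not called, 12 were called in some alternative and 14 changed direction. Numbers below count probe sets called.

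Between adult tissues 9988 probe sets and 6 members were called: 15588 with the sample as a random block, 16819 with adult arrays as 4 replicates, 3571 on the brightest probe set of each gene, 4546 above the median level, 1 by the methods' t-test and 0 at its threshold of 0.001. Members called were 2 without types that match several transcripts, and 0 by either t-test threshold. Between pup tissues (6437 and 7 members) the counts were 2902 on the brightest, 3821 above the median level, 1938 by the t-test and 0 at its threshold, with 2 members without those types and 0 at the t-test's threshold. For age in hippocampus (6709 and 9 members) they were 10275 with 4 replicates, 2947 on the brightest, 1887 by the t-test, 0 at its threshold and 4422 with the replicate block, with 4 members on the brightest, 1 without those types, 2 by the t-test, 0 at its threshold and 4 with the replicate block. For age in heart (9011 and 9 members) they were 3767 on the brightest, 5412 above the median level, 4557 with only the 2 groups compared, 1 by the t-test and 0 at its threshold, with 4 members on the brightest, 1 without those types and 0 by either t-test threshold. For the difference between the age differences (1600 and 2 members) they were 4078 with the random block, 4543 with 4 replicates, 672 on the brightest, 779 above the median level, 1055 with the replicate block and 245 with the block within age, with 1 member on the brightest, 0 without those types, 1 with a prior following the level and 0 with the block within age. The causes were not tested. By construction the filters use fewer probe sets and the 2-group fit fewer samples. That fit called fewer for age in heart and between pup tissues (4379). It called more between adult tissues (13200) and for age in hippocampus (8909). Same-numbered samples did not deviate together, so the block is only an alternative.

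Leaving out 1 sample gave 4564 to 11866 probe sets and 4 to 6 members between adult tissues, 4336 to 8547 and 6 to 8 between pup tissues, 1330 to 8763 and 2 to 10 for age in hippocampus, 3303 to 10260 and 6 to 10 for age in heart, and 209 to 2490 and 0 to 3 for their difference.

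The results that changed direction were not called. For age in heart, Aldoc 1424714_at (0.0029) was -0.13 after quantile normalization, -0.18 after the methods' scaling and -0.15 after median centring (-0.27 to 0.27 leaving out 1 sample), and Ldhb 1448237_x_at (0.09) was -0.061 after centring and -0.035 with the replicate block (-0.038 to 0.16). For age in hippocampus, Pgam2 (-0.05) was 0.16 with the replicate block (-0.37 to 0.27), Ldhb 1455235_x_at (-0.03) was 0.0093 after quantile normalization (-0.13 to 0.059), and Eno3 ran from -0.91 to 0.35. Between adult tissues, Ldhb 1416183_a_at (-0.03) was 0.082 after centring (-0.11 to 0.060), Aldoa 1416921_x_at ran from -0.38 to 0.075 and Aldoa 1439375_x_at from -0.011 to 0.65. Between pup tissues, Aldoa 1447734_x_at ran from -0.033 to 0.14. For the difference between the age differences, Aldoa 1416921_x_at (0.04) was -0.0026 after quantile normalization (-0.19 to 0.26), and the ranges were -0.013 to 0.63 for Pgam2, -0.52 to 0.052 for Aldoa 1434799_x_at, -0.056 to 0.27 for Ldhb 1448237_x_at and -0.76 to 0.25 for Pgam1. Median centring moved the median age difference of all probe sets from 0.12 to 0.02 in hippocampus and from 0.11 to -0.04 in heart, and that between adult tissues from -0.06 to 0.05, and with it 9 members fell with age in each tissue. Values near 16, the top of the scale, limit what the brightest Aldoa and Ldhb probe sets can show. In pup heart this also holds for Ldha and Ldhb 1434499_a_at, which averaged 15.19 and 15.25 there.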
